A study of Mus musculus with 24 samples.

Results

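Gata2, Lmo2, Lyl1, Runx1, Erg and Fli1 were followed in sorted bone marrow stem and progenitor cells of mouse pups. With Tal1 they form the heptad, a group of transcription regulators that occupy the same enhancers in blood stem and progenitor cells. The 6 genes were taken by symbol from 55414 gene identifiers in each count table, and all 6 were found: Gata2 (ENSMUSG00000015053, chromosome 6), Lmo2 (ENSMUSG00000032698, chromosome 2), Lyl1 (ENSMUSG00000034041, chromosome 8), Runx1 (ENSMUSG00000022952, chromosome 16), Erg (ENSMUSG00000040732, chromosome 16) and Fli1 (ENSMUSG00000016087, chromosome 9). The cells were LSK cells, which lack lineage markers and carry Sca-1 and Kit, and they hold blood stem cells and multipotent progenitors. They came from leg and hip marrow of pups at postnatal day 21. The C57BL/6J dams entered the study at 4 to 5 weeks of age and ate either regular chow (2018SX, the control) or Western diet (TD.88137, given to make the mothers obese). Dams received it for 4 weeks, were then mated, and stayed on it while carrying and nursing the pups.

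Sex of the pup and diet of the dam gave 4 groups of 6 libraries, with 2 libraries of every group in each of 3 labelled batches. No group carried a genetic change. Which pups shared a mother is not among the labels. The p-values therefore reflect library-to-library spread alone, with littermates possibly within a group.

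GATA2 is a zinc finger factor needed for the formation and survival of blood stem cells. LYL1 and TAL1 are related helix-loop-helix proteins that pair with E proteins on E-box sites, and LMO2 is a bridging protein that binds no DNA itself and joins them to GATA factors through LDB1. RUNX1 binds DNA together with CBFB and is required for the first blood stem cells to arise from endothelium. ERG and FLI1 are closely related ETS factors. ERG maintains stem cells, while FLI1 also drives megakaryocyte genes and opposes the erythroid factor KLF1. In erythroid differentiation GATA1 takes the place of GATA2 at many sites.

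Levels are in CPM, the counts of a gene scaled to an equal library total. The gate marker Kit (267 to 883 CPM), the progenitor marker Cd34 (227 to 953 CPM) and Ptprc, the CD45 gene (112 to 409 CPM), were present in all 24 libraries. Ly6a, which encodes Sca-1, was lower at 2.14 to 39.9 CPM. Of the lineage markers, Cd3e of T cells reached at most 1.25 CPM and Ly6g of neutrophils at most 0.0518 CPM, with 20 libraries at 0. Libraries held 38057263 to 51581968 counts in genes. A pair of female controls from batch 3 (numbers 5 and 6) had the highest Klf1 of all libraries (1046 and 1026 CPM, against at most 769 CPM in the other 22) and the highest Tal1 (174 and 94.1 CPM, against at most 70.5 CPM).

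Sequence windows around the start sites show which of the factors' own motifs lie close to these genes. RefSeq (GRCm38.p6) gave 8 windows of 300 bases, 250 before and 50 after a start site, for 4 of the 6 genes (Gata2, Lyl1, Runx1 and Erg). Lmo2 and Fli1 were not matched. The 4 windows with at least 1 match are shown, because these hold the factors' own motifs. Capitals mark matches on either strand to a GATA motif (AGATAA or TGATAA), a RUNX motif (TGTGGT or TGCGGT), an ETS motif (CGGAAG or AGGAAG) or an E-box (CANNTG).
Gata2, start site 2, chr6:88198414-88198713 (+ strand): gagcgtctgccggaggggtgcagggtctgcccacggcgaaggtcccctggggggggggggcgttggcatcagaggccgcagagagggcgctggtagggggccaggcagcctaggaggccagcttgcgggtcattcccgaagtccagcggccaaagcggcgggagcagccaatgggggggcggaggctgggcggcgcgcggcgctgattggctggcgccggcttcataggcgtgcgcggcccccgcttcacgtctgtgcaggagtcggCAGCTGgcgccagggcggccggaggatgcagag
Lyl1, chr8:84701207-84701506 (+ strand): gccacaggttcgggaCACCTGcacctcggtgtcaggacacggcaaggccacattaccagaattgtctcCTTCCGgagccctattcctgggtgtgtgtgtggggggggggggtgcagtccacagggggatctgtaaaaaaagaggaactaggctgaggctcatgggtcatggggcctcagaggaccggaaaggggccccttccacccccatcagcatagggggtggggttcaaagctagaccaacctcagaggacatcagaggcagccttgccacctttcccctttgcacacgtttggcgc
Runx1, start site 1, chr16:92826025-92826324 (- strand): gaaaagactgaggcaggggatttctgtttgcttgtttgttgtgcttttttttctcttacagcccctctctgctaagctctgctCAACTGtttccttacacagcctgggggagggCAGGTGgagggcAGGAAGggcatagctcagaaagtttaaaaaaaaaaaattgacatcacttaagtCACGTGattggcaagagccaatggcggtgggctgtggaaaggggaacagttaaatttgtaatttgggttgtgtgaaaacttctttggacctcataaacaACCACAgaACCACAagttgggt
Erg, start site 3, chr16:95459299-95459598 (- strand): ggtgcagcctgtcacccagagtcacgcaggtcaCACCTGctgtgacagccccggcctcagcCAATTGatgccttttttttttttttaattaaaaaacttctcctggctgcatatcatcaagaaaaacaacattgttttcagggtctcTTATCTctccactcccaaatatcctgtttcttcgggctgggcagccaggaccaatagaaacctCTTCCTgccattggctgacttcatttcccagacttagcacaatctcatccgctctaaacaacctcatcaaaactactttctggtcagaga
The Runx1 window was the one with RUNX motifs, a pair of ACCACA matches at bases 29 and 37 after the start site, and it also held 3 E-boxes and 1 ETS motif. The Erg window had 1 GATA motif, 1 ETS motif and 2 E-boxes, the Lyl1 window an ETS motif and an E-box, and the Gata2 window an E-box. Over 32851 mouse windows of the same length, a GATA motif was present in 18.6%, a RUNX motif in 22.4%, an ETS motif in 46.5% and an E-box in 72.3%. Among the 8 heptad windows the numbers with a match were 1, 1, 3 and 4, and no matches overlapped in these windows. A match describes letters and not binding.

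Per kilobase of exon, Lyl1 had the highest mean level of the 6 genes and Gata2 the lowest. Lyl1 stood at 88.9 ± 21.9 CPM per kilobase (mean ± SD over 24 libraries), Lmo2 at 67.9 ± 23.6 and Fli1 at 47.3 ± 11.0. Erg (11.4 ± 4.30), Runx1 (10.6 ± 2.43) and Gata2 (10.3 ± 2.62 CPM per kilobase) formed a lower set. Lmo2 exceeded Fli1 in 20 of 24 libraries. Erg exceeded Runx1 in 14 of 24 libraries and Runx1 exceeded Gata2 in 13 of 24, so the order within the lower set lay inside the spread between libraries. Of the 19480 tested genes with a known length, 96.5% had a lower mean per kilobase than Lyl1 and 74.0% a lower mean than Gata2. Tal1, the remaining heptad factor, stood near the lower set at 13.1 ± 6.34 CPM per kilobase. Gata1 (73.0 ± 40.9) and Klf1 (227 ± 172 CPM per kilobase), the erythroid counterparts of Gata2 and Fli1, were more abundant on average than those and varied more between libraries.

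**Figure D1:**
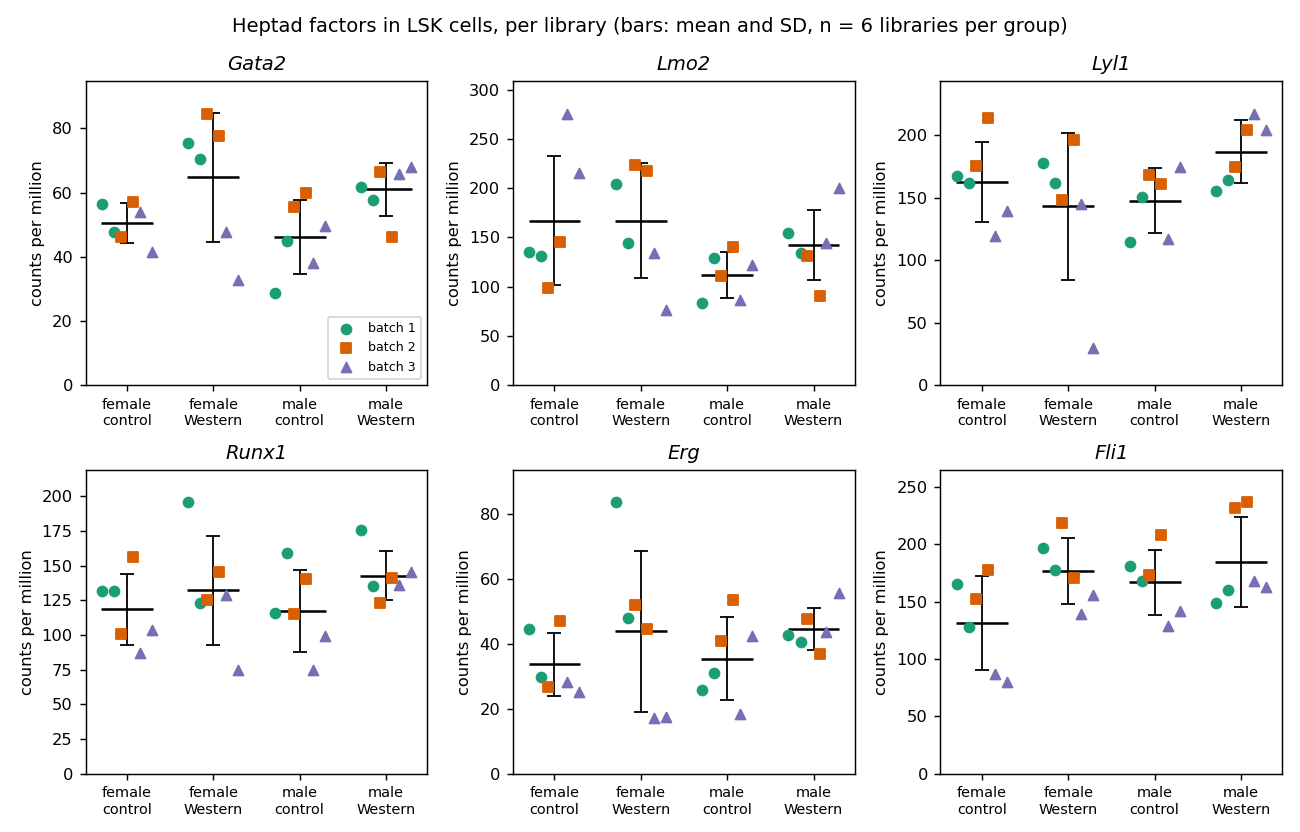
Level in CPM of the 6 heptad factors in each library (y axis) by sex and maternal diet (x axis), with batch shown by colour and shape, and the mean and SD of 6 libraries as bars. Fli1 was lowest in the female control libraries of batch 3 (86.7 and 80.2 CPM), and 1 female Western-diet library had the lowest Lyl1 (29.9 CPM).

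In daughters of Western-diet dams Fli1 rose, and the other 5 genes did not pass the test. Fli1 had 80.2 CPM in the lowest, 140 CPM in the median and 178 CPM in the highest female control library, against 139, 174 and 219 CPM in female Western-diet libraries. All 6 Western-diet libraries lay above the control mean and 3 lay above every control, so the groups overlapped. Fli1 was 1.38-fold higher (log2 fold change 0.46 ± 0.12 SE, 95% interval 0.22 to 0.71, adjusted p = 0.0228 by edgeR's quasi-likelihood test). Of all 19616 genes tested, 5.42% were called in this comparison, 2.20% as higher and 3.22% as lower, against 1 of the 6 heptad genes, as higher. In sorted bulk cells, more cells of a type and more RNA per cell cannot be told apart.

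Without both female control libraries of batch 3 the log2 fold change of Fli1 was 0.28 (adjusted p = 0.335). Left out singly, female control 5 or 6, female Western-diet 1 or 2, male control 4 or male Western-diet 3 also ended the call, with the log2 fold change at 0.39 to 0.43 and the adjusted p at 0.0502 to 0.0842. Within batches 1, 2 and 3, Western-diet females differed from control females in mean log2 CPM of Fli1 by 0.37, 0.23 and 0.82. The direction was thus the same in each batch, with the largest difference in batch 3.

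Gata2 was higher in most but not all Western-diet females. It had 41.5, 50.8 and 57.2 CPM in the lowest, median and highest female control library and 32.8, 73.0 and 84.6 CPM in the Western-diet ones (log2 fold change 0.33 ± 0.18 SE, 95% interval -0.04 to 0.70, adjusted p = 0.292). The 4 Western-diet libraries of batches 1 and 2 lay above every control, and 1 library of batch 3 lay below every control. The within-batch differences were 0.49, 0.66 and -0.26 on the log2 scale.

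Erg, the other ETS factor, showed the same split by batch. Its lowest, median and highest values were 25.2, 29.2 and 47.1 CPM in female controls and 17.3, 46.3 and 83.6 CPM in Western-diet females. Both Western-diet libraries of batch 3 lay below every control and 3 of the others lay above all of them. The log2 fold change was 0.31 ± 0.28 SE (adjusted p = 0.579), and the differences within batches were 0.79, 0.44 and -0.62.

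Runx1, Lmo2 and Lyl1 had small estimates in females with wide intervals. Runx1 went from 86.8, 118 and 156 CPM (lowest, median and highest control) to 74.9, 127 and 196 CPM, a log2 fold change of 0.15 with a 95% interval of -0.16 to 0.46. Lmo2 went from 98.9, 140 and 276 CPM to 76.3, 175 and 224 CPM, with a log2 fold change of 0.03 and an interval of -0.50 to 0.56. Lyl1 went from 119, 164 and 213 CPM to 29.9, 155 and 196 CPM, with a log2 fold change of -0.20 and an interval of -0.71 to 0.32. All 3 groups of values overlapped, and each interval holds 0. For Lmo2 the batches went opposite ways: Western-diet females differed from controls by 0.37 and 0.88 in batches 1 and 2 and by -1.27 in batch 3. Female control libraries 5 and 6 had the highest Lmo2 of their group, at 276 and 215 CPM, together with the lowest Fli1.

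**Figure D2:**
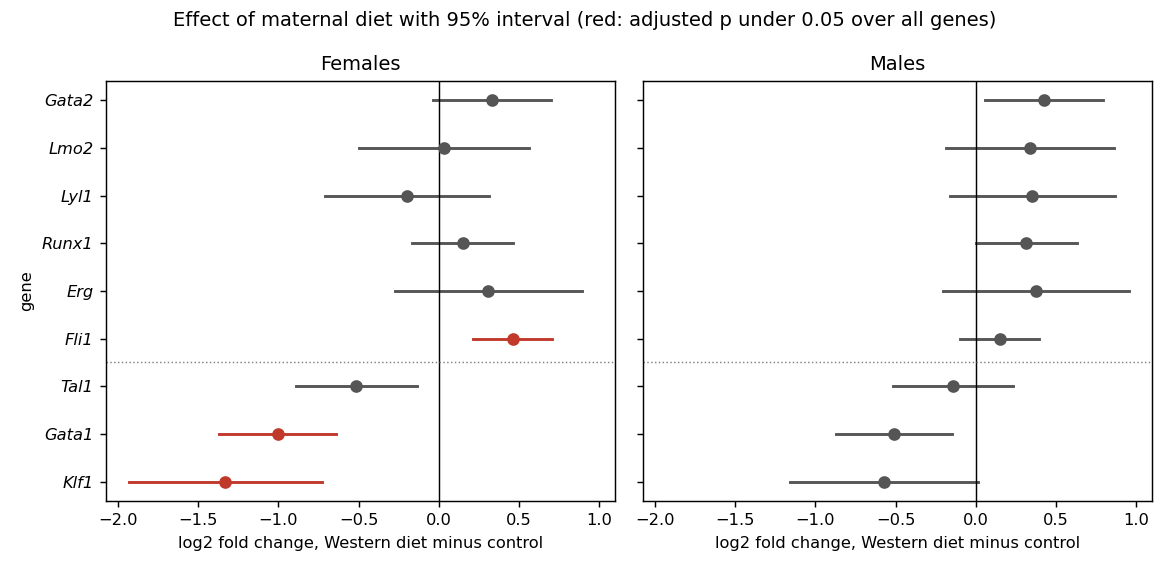
Log2 fold change of Western-diet against control pups (x axis) with its 95% interval for the 6 heptad factors, Tal1, Gata1 and Klf1 (y axis), in females (left) and males (right), red where the adjusted p is under 0.05. Fli1 (0.46), Gata1 (-1.0) and Klf1 (-1.33) passed in females, and none of these 9 genes passed in males.

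In sons no heptad gene passed the test. Gata2 had the largest estimate, with 28.8, 47.3 and 59.8 CPM in the lowest, median and highest male control library and 46.1, 63.8 and 68.1 CPM in the Western-diet ones. All 6 Western-diet libraries lay above the control mean and 4 lay above every control (log2 fold change 0.43 ± 0.18 SE, 95% interval 0.06 to 0.80, unadjusted p = 0.0252, adjusted p = 0.506 by edgeR). Within batches 1, 2 and 3 the difference was 0.73, -0.06 and 0.62.

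Lyl1, Runx1 and Erg also had every Western-diet male above the control mean. Lyl1 ran from 115 through 156 to 175 CPM in control and from 155 through 189 to 217 CPM in Western-diet males (log2 fold change 0.35 ± 0.25 SE, adjusted p = 0.726). Runx1 ran from 74.7 through 115 to 159 CPM and from 123 through 139 to 175 CPM (0.32 ± 0.15 SE, adjusted p = 0.590). Lyl1 and Runx1 had positive differences in males in each of the 3 batches, by 0.28, 0.20 and 0.56 for Lyl1 and by 0.18, 0.06 and 0.71 for Runx1.

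The estimates of the other 3 genes in males were positive without passing. Erg lay at 18.4 to 53.7 CPM in control males, and in Western-diet males it had a median of 43.2 CPM and reached 55.5 CPM (log2 fold change 0.38, 95% interval -0.20 to 0.96). Lmo2 lay at 83.1 to 140 and at 90.8 to 200.5 CPM (0.34, interval -0.18 to 0.86). Fli1, the gene called in females, lay at 129 to 208 and at 149 to 237 CPM (0.15, interval -0.10 to 0.39). In males 0.0102% of all genes were called, which is 2 of 19616, beside 1657 at an unadjusted p under 0.05. The median log2 fold change was 0.35 over the 6 genes and 0.02 over all genes.

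**Figure D3:**
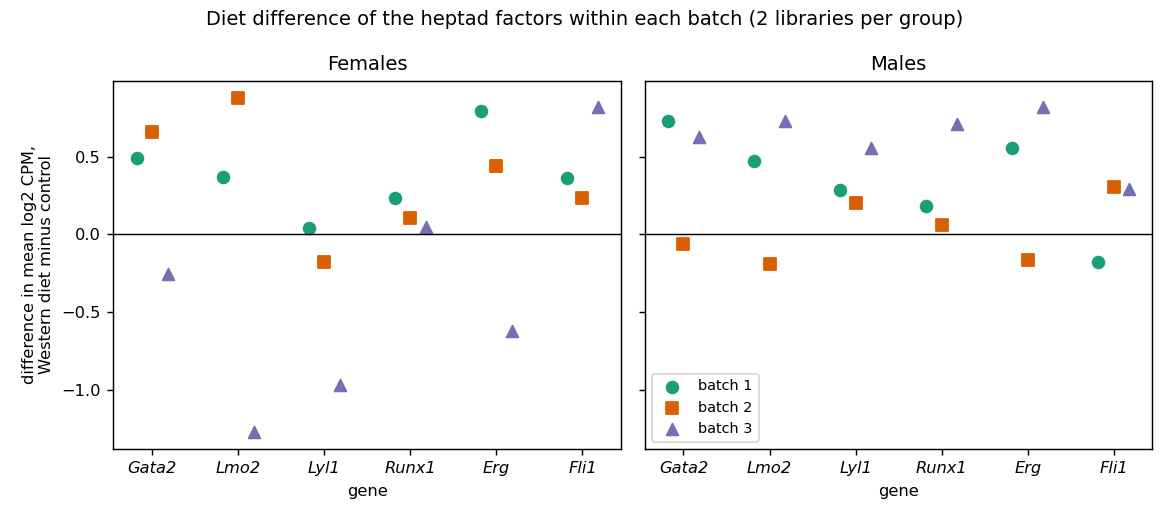
Difference in mean log2 CPM between Western-diet and control libraries (y axis) for each heptad factor (x axis), computed separately in batches 1, 2 and 3 with 2 libraries per group, in females (left) and males (right). In females Gata2, Lmo2 and Erg were positive in batches 1 and 2 and negative in batch 3, whereas Fli1 and Runx1 were positive in all 3.

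Averaged over the sexes, Fli1 was the heptad gene that passed. Its log2 fold change was 0.31 ± 0.08 SE (95% interval 0.13 to 0.48, adjusted p = 0.0311), in a comparison that called 5.70% of all genes, 2.19% as higher and 3.51% as lower. The call was lost, at a log2 fold change of 0.21 (adjusted p = 0.189), without both female control libraries of batch 3. Leaving out 1 library at a time ended it in 11 of 24 cases: female control 3, 5 or 6, female Western-diet 1 or 2, male control 3, 4 or 5, and male Western-diet 3, 5 or 6. In these cases the log2 fold change was 0.27 to 0.29, with an adjusted p of 0.0568 to 0.0992.

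Gata2 did not pass in the average, with a log2 fold change of 0.38 ± 0.13 SE (95% interval 0.12 to 0.64, adjusted p = 0.0765). It did pass under limma-voom (adjusted p = 0.0249), with no filter on low counts (adjusted p = 0.0128), without female Western-diet library 6 (adjusted p = 0.0164) and without male Western-diet library 4 (adjusted p = 0.0325). Runx1 (0.23), Erg (0.34), Lmo2 (0.19) and Lyl1 (0.08) had positive averages that did not pass, with adjusted p-values from 0.218 to 0.863. Without the filter Erg also passed (0.33, adjusted p = 0.0498). In the average 1118 genes of all were called in the main fit, 1693 without the filter and 1505 under limma-voom. The number was 1169 without female Western-diet library 6 and 1459 without male Western-diet library 4.

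The diet effect was not shown to differ between the sexes for any of the 6 genes. The male minus female difference of log2 fold changes ran from -0.31 for Fli1 (95% interval -0.66 to 0.03, adjusted p = 0.617) to 0.55 for Lyl1 (interval -0.18 to 1.27, adjusted p = 0.659). By edgeR no gene of the 19616 was called in that comparison (0%), and 1633 had an unadjusted p under 0.05, while DESeq2 called 4 genes and limma-voom 0, none of them a heptad gene.

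Nor did any heptad gene pass between male and female pups of the same diet, where 0.112% of all genes in controls (0.0867% higher and 0.0255% lower in males) and 0.0816% in Western-diet pups (0.0561% and 0.0255%) were called. At an unadjusted p under 0.05 the numbers were 2583 and 1324 genes. In controls, Lmo2 and Fli1 had the largest estimates. Lmo2 had lower values in males, with 83.1, 116 and 140 CPM (lowest, median and highest) against 98.9, 140 and 276 CPM in females (log2 fold change -0.56 ± 0.25 SE, adjusted p = 0.347), and all 6 males lay below the female mean. It was called with no filter on low counts (-0.58, adjusted p = 0.00127), a setting that called 1296 genes in this comparison against 22 in the main fit. Fli1 had a log2 fold change of 0.37 ± 0.12 SE, males over females (adjusted p = 0.188). Within batches the male minus female difference in controls was -0.36, 0.05 and -1.25 for Lmo2 and 0.26, 0.21 and 0.69 for Fli1, so both were largest in batch 3, which holds female controls 5 and 6. In Western-diet pups, Lyl1 had the largest difference (0.43 ± 0.25 SE, adjusted p = 0.759).

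Fli1 and Runx1 differed between batches. Over 8 libraries each, Fli1 averaged 166 CPM in batch 1, 196 CPM in batch 2 and 133 CPM in batch 3, and batch 3 was 0.59 lower than batch 2 on the log2 scale (adjusted p = 0.000846 over the 3 batches). Runx1 averaged 146, 131 and 106 CPM, and batch 3 was 0.47 lower than batch 1 (adjusted p = 0.0287). The F test called 24.2% of all genes, and 2 of the 6. Gata2, Lmo2, Lyl1 and Erg did not pass it, with adjusted p-values of 0.210 or more.

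**Figure D4:**
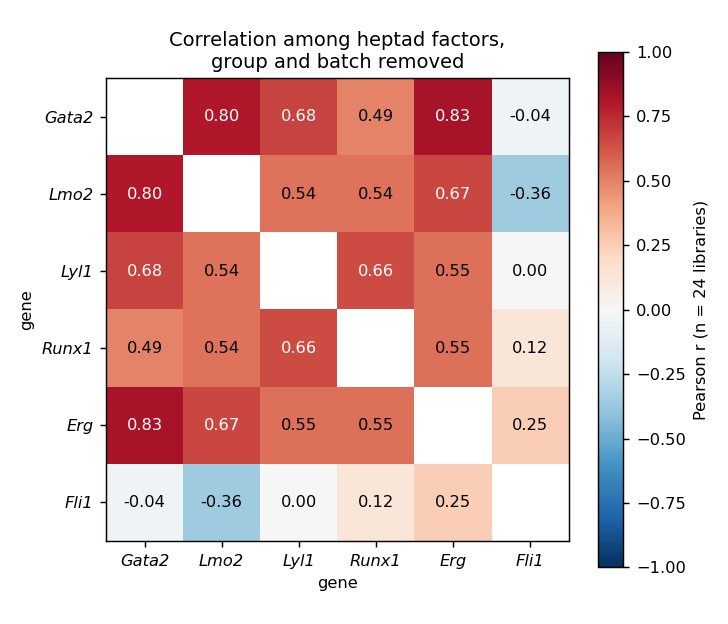
Pearson correlation between each pair of heptad factors over 24 libraries (colour and printed value), on log2 CPM with the group and batch means of the model removed. Gata2, Lmo2, Lyl1, Runx1 and Erg correlated with each other at 0.49 to 0.83, and Fli1 with these 5 at -0.36 to 0.25.

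Over all 24 libraries pooled, 5 of the factors correlated with each other, while no pair with Fli1 passed the test. These correlations used log2 CPM with group means and batch means removed as separate terms (n = 24 libraries, which share 1 normalization). Group differences that change from batch to batch stayed in these values. The r within batches, given below, had the group means of each batch removed. With 2 libraries per group in a batch, the residuals of a group mirror each other. Each such r thus rests on 1 difference per group, 4 in all, and is only a rough description. Permutation p-values were adjusted over the 15 pairs. Permutations here and below shuffled all 24 libraries without regard to group or batch, so these p-values can be too small. All 10 pairs without Fli1 had a Pearson r of 0.49 to 0.83 with an adjusted permutation p of at most 0.0222, and 9 of 10 passed by Spearman's rho. Without female control libraries 5 and 6 these r were 0.54 to 0.90. Without the 2 libraries farthest from the median of the first-named gene of each pair they were 0.29 to 0.83. Here the genes were ordered as Gata2, Lmo2, Lyl1, Runx1 and Erg. Libraries far out in the second gene alone were not left out. The 5 pairs with Fli1 had r of -0.36 to 0.25 and rho of -0.28 to 0.34, none of which passed (smallest adjusted permutation p 0.119 for r and 0.144 for rho).

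Gata2 and Erg were the closest pair by pooled r. Their r was 0.83 and their rho 0.92, both at a permutation p of 1e-05, the smallest that 100000 resamples give (adjusted 7.5e-05 and 0.00015). Within batches 1, 2 and 3 (8 libraries each, with 1 difference per group) r was 0.56, 0.81 and 0.55. It was 0.83 without the 2 libraries farthest from the median of Gata2. For Gata2 and Lmo2 r was 0.80 and rho 0.75 (adjusted permutation p = 7.5e-05 and 0.000225), with 0.83, 0.92 and 0.92 within batches and 0.72 without the 2 farthest libraries.

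Lmo2 and Erg had an r of 0.67 and a rho of 0.66 (adjusted permutation p = 0.00099 and 0.00247), with 0.72, 0.94 and 0.57 within batches and 0.65 without the 2 farthest libraries. Lyl1 and Runx1 had an r of 0.66 and a rho of 0.67 (adjusted permutation p = 0.00065 and 0.0021). Within batches the r of Lyl1 and Runx1 was 0.63, 0.71 and 0.95, and it was 0.61 without the 2 farthest libraries. Other pairs were less even. For Gata2 and Lyl1 r was 0.68 and rho 0.57 (adjusted permutation p = 0.00099 and 0.0108), but r was 0.40 without the 2 farthest libraries and was 0.90, -0.25 and 0.76 within batches. Erg and Fli1, the related ETS factors, had a pooled r of 0.25 (rho 0.34, adjusted permutation p = 0.311 and 0.144) and an r of 0.68, 0.72 and 0.56 within batches. For Gata2 and Erg the r within batches was 0.56, 0.81 and 0.55. With 1 difference per group in each batch, these values do not rank the 2 pairs. Of the 5 pairs with Fli1, 2 had a positive r in all batches, as did 9 of the 10 pairs without it, which was not tested.

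Correlations with the factors were also read over 9254 other genes with a mean of at least 10 CPM. Of these, 0.886% correlated with Erg at least as closely as Gata2 did, and 2.09% with Gata2 at least as closely as Erg did. For Gata2 and Lmo2 the shares were 3.20% (with Gata2) and 4.60% (with Lmo2), and for Lyl1 and Runx1 they were 4.57% (with Lyl1) and 1.78% (with Runx1). Over the 10 pairs without Fli1 they reached 18.6%, for genes as close to Gata2 as Runx1 was. The share of reads that fell in no annotated feature, 7.07 to 16.4% per library, moved with Gata2 (r = 0.59, rho 0.39, adjusted permutation p = 0.0169 and 0.279 over 12 relations) and with Lmo2 (r = 0.61, rho 0.56, adjusted permutation p = 0.0169 and 0.0518). Without the 2 libraries farthest from the median of this share r was 0.51 and 0.58. Within batches r was 0.86, 0.49 and 0.67 for Gata2 and 0.77, 0.32 and 0.58 for Lmo2. The part of this share in the correlations among the factors was not tested.

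The genes whose residual pattern was most like each factor's, over 24 libraries and 9254 other genes, were not heptad genes. For Gata2 these were Camk1 (r = 0.95) and Ier2 (0.93), an immediate early gene. For Lmo2 they were Ssbp4 (0.97), of the family of proteins that stabilize LDB1, and Nsmce3 (0.97). Lyl1 was closest to Paox (0.96) and Fam53a (0.95), Runx1 to Fut8 (0.92) and Atp1b3 (0.87), Erg to Syap1 (0.92) and Triobp (0.91), and Fli1 to Rab31 (0.91) and Ccdc69 (0.88). These r are descriptions, with no test, chosen as the highest of many.

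Tal1, the heptad factor left out of the 6, had a negative estimate in females. It had 47.5, 60.8 and 174 CPM in the lowest, median and highest female control library and 44.6, 54.1 and 61.3 CPM in the Western-diet ones. All 6 Western-diet libraries lay below the control mean, which rested on female control library 5 at 174 CPM. The log2 fold change was -0.51 ± 0.18 SE (adjusted p = 0.0995) in females and -0.14 (adjusted p = 0.854) in males, and -0.18 in females without both batch 3 controls.

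Of 21 genes whose proteins work with the heptad factors, 5 rose and 2 fell in Western-diet females, where 2.20% of all genes were called higher and 3.22% lower, and none passed in males. The median log2 fold change was 0.18 in females, beside 0.03 over all genes. Cbfb, which encodes the partner protein of RUNX1, rose by 0.86 ± 0.20 SE on the log2 scale (adjusted p = 0.0140). Mecom (0.55) and Meis1 (0.52), stem cell factors, and Myb (0.52), a progenitor factor, rose as well, as did Gfi1 (0.90), a transcriptional repressor needed for granulocyte development. The 2 that fell act in erythroid and megakaryocyte cells: Gfi1b at -1.23 ± 0.20 SE (adjusted p = 0.000713) and Gata1 at -1.0 ± 0.18 SE (adjusted p = 0.00149). Averaged over the sexes 5 rose (Gfi1, Cbfb, Myb, Tcf4 and Etv6), and the same 2 fell, beside 2.19% of all genes called higher and 3.51% lower. Ldb1, which LMO2 binds, had a value of -0.59 (adjusted p = 0.0570), and the E protein gene Tcf3 one of -0.72 (adjusted p = 0.124), which was -0.17 (adjusted p = 0.718) without both female controls of batch 3. Without both female controls of batch 3, no partner was called higher in females or in the average, and both lower calls were left, in females with Gfi1b at -1.11 (adjusted p = 0.0265) and Gata1 at -0.84 (adjusted p = 0.0452).

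Family members, known targets and stem cell genes were read against the same shares of all genes in females, 2.20% called higher and 3.22% lower. Of 17 tested genes of the GATA, RUNX, ETS, TAL and LMO families, Lmo4 (0.48) and Runx2 (0.40) rose and Gata1 fell in females, and Elf1, the most abundant by CPM, was at 261 CPM on average. Of 21 targets of heptad factors, Angpt1 (0.64), Mecom and Myb rose and Gfi1b and Eng (-0.48), a TGF-beta co-receptor, fell. Mecom and Myb, like Gata1 and Gfi1b, stand on more than 1 of these lists. Cd34, the most abundant target, had a value of 0.54 (adjusted p = 0.0515), or 0.25 without both female controls of batch 3, and Kit one of -0.08. Of 13 stem cell genes Mecom and Meis1 rose and Mllt3 (-0.43) fell. In males none of these genes passed, and without both female controls of batch 3 no gene of these lists was called higher in females. The lower calls of Eng (-0.46, adjusted p = 0.283) and Mllt3 (-0.28, adjusted p = 0.435) were lost there too, and those of Gata1 and Gfi1b were left.

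**Figure D5:**
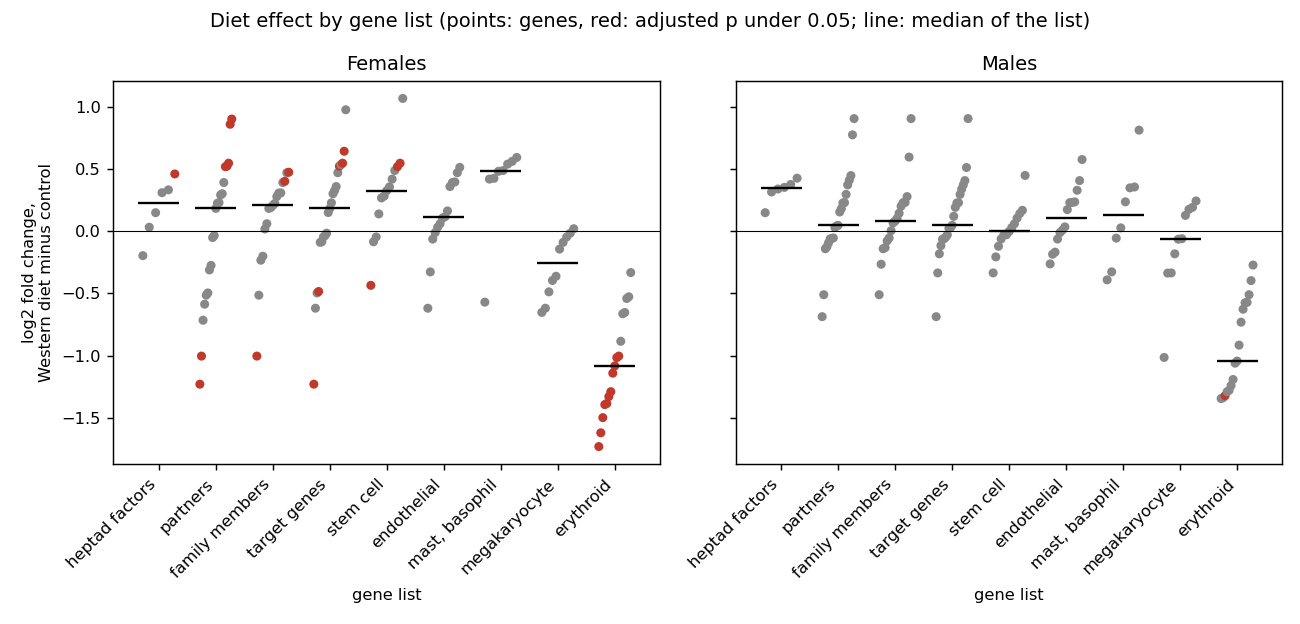
Log2 fold change of Western-diet against control pups (y axis) for the genes of each list (x axis), in females (left) and males (right), with called genes in red and the median of each list as a line. In females the heptad median was 0.23 with Fli1 called, and 11 of 17 erythroid genes were called lower, beside 3.22% of all genes. In males 1 erythroid gene and no heptad gene was called, beside 0.0102% of all genes. The erythroid median was -1.08 in females and -1.04 in males.

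Markers of other cells that use heptad factors were read beside these results. Erythroid genes moved with diet: their summed level was 7812 to 13997 CPM in female controls and 2728 to 7742 CPM in Western-diet females. Of 17 genes 11 were called lower and none higher, beside 3.22% of all genes called lower and 2.20% higher. Without both female controls of batch 3, 8 of the list were called lower in females. In males the sums were 7601 to 13249 and 4053 to 7091 CPM, with Car1 called lower, beside 0.0102% of all genes. Car2, the most abundant of the list, fell in females by 1.02 on the log2 scale. The erythroid score is the mean of the list's centred log2 CPM. With group means and batch means removed as separate terms, its r with the factors was -0.39 to -0.07 (n = 24). None passed (smallest adjusted permutation p 0.250 for r and 0.279 for rho). For Fli1 this r was -0.07. With group means removed, these r leave out the average shift between diet groups, so they do not say whether score and factors moved together with diet.

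Megakaryocyte genes, which Fli1 helps to drive, had summed levels of 237 to 422 CPM in female controls and 227 to 382 CPM in Western-diet females. The platelet receptor gene Gp1bb was at 0 in 20 of 24 libraries. None of 10 tested was called, with a median log2 fold change of -0.25 in females. Endothelial genes summed to 245 to 360 and 299 to 421 CPM, with none of 14 called and Egfl7, which progenitors also express, as the most abundant. Mast cell and basophil genes summed to 302 to 615 CPM in female controls and 462 to 1022 CPM in Western-diet females, with none of 8 called and Prss34, a basophil protease, as the most abundant. In the average over sexes Hdc (0.45) and Fcer1a (0.70) rose, beside 2.19% of all genes called higher. Without both female controls of batch 3 neither was called in the average (adjusted p = 0.135 and 0.145). Of the remaining lists, Igkc and Cd79b rose among 10 lymphoid genes in females and Nkg7 (0.80) among 7 T and NK cell genes, beside 2.20% of all genes called higher. None of 9 granulocyte and monocyte genes or 4 gate genes was called in females. Without both female controls of batch 3 these higher calls were lost, with Igkc at an adjusted p of 0.142, Cd79b at 0.436 and Nkg7 at 0.165 (log2 fold change 0.47). The most abundant genes of the first 3 lists were Flt3, Nkg7 and Mpo. No gene of these lists was at 0 in all libraries. The part of any of these cells in the heptad results was not tested.

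Gata2 and Fli1 can also be set against their erythroid counterparts within each library. On the per-kilobase scale, the log2 ratio of Gata2 to Gata1 was -3.44 ± 0.78 in female controls (mean ± SD, n = 6) and -2.14 ± 0.91 in Western-diet females. In males it was -3.10 ± 0.84 and -2.15 ± 0.26. The log2 ratio of Fli1 to Klf1 was -3.25 ± 1.26 and -1.31 ± 0.56 in females, and -2.08 ± 1.14 and -1.40 ± 0.63 in males. The erythroid gene was thus the more abundant of both pairs on average in every group, and by less in Western-diet pups. For Fli1 to Klf1 in males the medians were close, at -1.60 in control and -1.46 in Western-diet pups. In females the medians were -2.79 and -1.23 for Fli1 to Klf1 and -3.32 and -2.01 for Gata2 to Gata1. For Gata2 to Gata1 in males they were -3.14 and -2.17. Klf1 differed by diet most in batch 3. In females its log2 differences in batches 1, 2 and 3 were -0.74, -0.98 and -2.68. In males they were -0.24, -0.19 and -1.16. These pairs were chosen with earlier results known, and the ratios were not tested. In the gene tests Klf1 fell in females at -1.33 ± 0.29 SE (adjusted p = 0.00839), a call that was lost without both batch 3 controls (-1.15, adjusted p = 0.123). In males Gata1 (-0.51, adjusted p = 0.395) and Klf1 (-0.57, adjusted p = 0.605) did not pass.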

How the data were processed

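LSK cells were sorted after lineage depletion. Per the labels' protocols, RNA (integrity number over 8) was turned into libraries with a low-input kit. The authors deposited raw counts per gene, 1 table per library. FastQC, cutadapt, STAR, HTSeq, DESeq2 and GRCm39 are named per the submitters' processing notes. Versions, strand setting and annotation were not given in the sources used here. Summary lines without a gene made up 31.0 to 39.3% of a library and were dropped. Reads of overlapping antisense genes cannot be told apart without strand: such exons covered 0.881% of Runx1 (Gm26626) and 0.222% of Lyl1 (Nfix), and no exon of the other 4 genes. Of 55414 identifiers, 52081 matched a symbol.

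The tests were edgeR quasi-likelihood tests (edgeR 4.0.16, R 4.3.3, with limma 3.58.1 and DESeq2 1.42.0 for alternatives), with filterByExpr, TMM and terms for group and batch in 1 fit of 24 libraries. The filter kept 19616 genes, among them all 6 heptad genes. P-values are two-sided, adjusted by Benjamini-Hochberg over all genes tested and called under 0.05. CPM use TMM-corrected library sizes, log2 CPM a prior count of 2, and exon lengths come from GENCODE vM21 (GRCm38). A standard error is the log2 fold change divided by the root of F. Named genes are the 6 factors, Tal1, Gata1, Klf1, up to 4 called genes a direction and the most abundant gene of each of 12 lists, and the 2 genes most like each factor. Ldb1, Tcf3 and the gate and lineage markers were named beyond that rule, after their values were seen. Ahsp was not matched, and some genes of the lists are not reported here. The factors, lists and rules were chosen with earlier results of these data known. The fit was tested on data simulated with a single spread and no batch effect, and with changes larger than those of the 6 factors. That test does not show how well changes of the size reported here are found. Replicate numbers did not pair libraries: same-numbered libraries of different groups had a median correlation of -0.12 (36 pairs), other pairs of a batch -0.17.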

Additional observations from a re-analysis of the deposited data

Results flagged for a closer look

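In 1 of 24 checks, each of 1 factor in 1 group of 6 libraries, a library lay far from the others by Dixon's 95% criterion, and chance flags about 1 group in 20. Lyl1 was at 29.9 CPM in female Western-diet library 6 (batch 3), where the gap to the next library made up 0.692 of the group's range (critical value 0.625). The same library had the lowest Gata2 (32.8 CPM), Lmo2 (76.3 CPM) and Runx1 (74.9 CPM) of its group, with Fli1 at 156 CPM. Without it the log2 fold change of Lyl1 in females was 0.03 in place of -0.20, and Gata2 passed in the average over sexes (0.45, adjusted p = 0.0164).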

How the results depend on the processing

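Of the 6 heptad genes, 1 was called in females (Fli1), 1 in the average over sexes (Fli1) and 0 in the other 4 comparisons. In females the count was 0 with no batch term (Fli1 0.42, adjusted p = 0.216), with only the groups compared (0.44, adjusted p = 0.104), without batch 2 (0.56, adjusted p = 0.0763), without batch 3 (0.30, adjusted p = 0.377) and without both female controls of batch 3. In the average it was 3 with no filter on low counts, 2 under limma-voom, and 0 with no batch term, without batch 2, without batch 3 or without that pair of controls. For sex in control pups it was 1 with no filter (Lmo2). Leaving out 1 library at a time gave 0 to 1 in females and 0 to 2 in the average, and 0 in the other comparisons, with Fli1 at 0.39 to 0.54 and 0.27 to 0.33. Fli1 kept its sign in both under every alternative run. With the replicate number as a block the counts were 1 in females and 1 in the average (Fli1 adjusted p = 0.0380 and 0.0474) and 0 elsewhere, so the block changed no call. The number of all genes called also moved with the setting: 1064 in females ranged from 146 (without batch 3) to 2023 (no filter), 1118 in the average from 143 to 1784 (DESeq2), and 2 in males from 0 to 380, 22 for sex in controls from 7 to 1296, 16 for sex in Western-diet pups from 9 to 283 and 0 for the male minus female effect from 0 to 572, the 4 highest with no filter.

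Signs turned for estimates that did not pass. For diet in females Lmo2 (0.03) was -0.0013 with no batch term, -0.0059 with only the groups compared, -0.19 without batch 1 and -0.42 without batch 2, and Erg was -0.094 without batch 1. Lyl1 in the average was -0.0052 without batch 1. The male minus female effect was -0.041 for Gata2 and -0.038 for Erg under limma-voom, -0.050 for Erg with no batch term, and -0.25 (Gata2), -0.49 (Lmo2), -0.063 (Runx1) and -0.48 (Erg) without batch 3. For Lmo2 it was -0.057 without the pair of controls. For sex in controls Erg was -0.084 without batch 2 and Runx1 0.0068 without batch 3. For sex in Western-diet pups Gata2 was 0.10 without batch 1 and 0.16 without batch 2, Lmo2 0.14 and Fli1 -0.061 without batch 2, and Runx1 -0.056, Erg -0.47 and Fli1 -0.018 without batch 3. With 1 library left out, the ranges that crossed 0 were, in females, -0.12 to 0.24 (Lmo2), -0.32 to 0.026 (Lyl1) and -0.0044 to 0.47 (Erg). For the male minus female effect they were -0.052 to 0.20 (Gata2) and -0.11 to 0.38 (Erg), for sex in controls -0.10 to 0.046 (Runx1) and -0.11 to 0.19 (Erg), and for sex in Western-diet pups -0.19 to 0.048 (Gata2), -0.031 to 0.42 (Erg) and -0.017 to 0.13 (Fli1). The causes were not tested.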
